A study of Rattus norvegicus with 6 samples.

Results

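The proteasome subunit genes were followed in the substantia nigra pars compacta of rats given rotenone or solvent. They were taken as every array probe whose RefSeq transcript belongs to a rat gene with a symbol starting Psma, Psmb, Psmc, Psmd, Psme or Psmf. This gave 24 genes with 27 probes, out of 4013 named genes with 4675 named probes and 33849 probes in all. The 6 animals were male Sprague Dawley rats aged 5 months, all of which carried a minipump under the skin for 28 days. In 3 rats (numbers 16, 13 and 9) the pump delivered rotenone, an inhibitor of mitochondrial complex I, at 0.5 mg/kg per day. In the other 3 (numbers 11, 7 and 1) it delivered the solvent alone, dimethylsulfoxide and polyethylene glycol with a dispersing agent, which the rotenone rats received too. The region, isolated by laser capture, holds dopamine neurons together with other neurons, glia and vessels, and the RNA of each rat went on 1 one-colour array.

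The proteasome is the protease that degrades most ubiquitin-tagged proteins of the cell. Its core is a barrel of stacked rings, in which alpha subunits form the outer gate and some beta subunits carry the proteolytic sites. A regulatory particle caps the barrel: its base holds ATPases that unfold the substrate and receptors that bind ubiquitin, and its lid removes the ubiquitin chain. Impaired degradation of proteins by this route has long been studied in Parkinson disease, which rotenone is used to model in rodents.

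The named probes covered the roles unevenly. Of the alpha ring, 5 of 8 genes were measured, and of the beta ring 5 of 7, where only Psmb7 of the constitutive proteolytic subunits was among them. The immunoproteasome, in which interferon-induced beta subunits replace the constitutive ones, was represented by Psmb8 and Psmb9, 2 of 4 genes with the thymus subunit counted. The base had 7 of 9 genes, the lid 1 of 8 (Psmd6), the chaperones of base assembly 2 of 3, the activators 2 of 4 and the inhibitor Psmf1 0 of 1. All 24 genes entered the test, and 22 of them were above background on all 6 arrays. Psma1 and Psmc3 were so on 5, being below it in rotenone rat 16.

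Promoters of these genes are shown with motifs that were chosen with earlier results of these data known. RefSeq promoters of the assembly GRCr8, 250 bases before to 50 after the gene start, were matched for 23 of the 24 genes. The letters CCAAT, the box bound by the factor NF-Y, stood on either strand in 15 of 23 (65.2%), against 37.5% of 33469 promoters of the same length and 38% of the 21851 promoters of protein-coding genes. In 5 genes a CCAAT box lay on the gene's own strand within the 100 bases before the start. These stretches are given 5′ to 3′ on the gene strand, with the boxes in capitals, for Psma2 (chr17:55260442-55260541, minus strand), Psma5 (chr2:198584405-198584504, plus), Psmb2 (chr5:144254958-144255057, plus), Psmb3 (chr10:83193687-83193786, plus) and Psmc3 (chr3:97487543-97487642, plus).
Psma2: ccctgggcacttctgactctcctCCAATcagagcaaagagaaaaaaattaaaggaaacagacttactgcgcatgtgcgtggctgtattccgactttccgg
Psma5: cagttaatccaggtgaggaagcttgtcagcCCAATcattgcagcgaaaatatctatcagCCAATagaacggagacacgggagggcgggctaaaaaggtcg
Psmb2: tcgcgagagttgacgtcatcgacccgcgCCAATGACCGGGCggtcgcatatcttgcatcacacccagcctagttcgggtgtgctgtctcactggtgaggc
Psmb3: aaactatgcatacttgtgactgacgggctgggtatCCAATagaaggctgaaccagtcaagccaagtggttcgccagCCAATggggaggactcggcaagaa
Psmc3: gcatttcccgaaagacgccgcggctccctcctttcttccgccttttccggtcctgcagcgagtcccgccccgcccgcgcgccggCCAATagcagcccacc
The antioxidant response element core TGACNNNGC, the sequence through which Nfe2l1 and Nfe2l2 act, was found on either strand in 3 of 23 promoters (13%; Psmb2, Psmd1 and Psmd9), against 12.1% of all promoters. In Psmb2 its capitals run on from the CCAAT box: the box lies at -72 to -68 and the element at -68 to -60, counted from the start, so that they share 1 base. The median difference between rotenone and solvent, as log2, was -0.33 in the genes with a CCAAT box and -0.20 in those without. Leaving out rotenone rat 16, whose array stood apart, these medians were -0.061 and -0.080, in the opposite order. These matches describe letters in a window and nothing about binding, and their part in the levels was not tested.

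Levels below are normalized log2 intensities, which compare rats for 1 probe and not probes with each other, and differences are rotenone minus solvent on that scale. An offset of 50 added to the intensities pulls the differences of dim probes towards 0. Rotenone rat 16 stood apart from the other 5 rats. On its array 44.2% of probes were above background, against 48.6% to 51.5% on the others, the median net signal was 11.7 intensity units against 13.9 to 16.6, and its mean correlation with the other arrays was 0.931 against 0.956 to 0.964. The file header date also differs for solvent rat 7 alone. Differences of the proteasome genes are therefore given with and without rotenone rat 16. The dopamine markers Th, Slc6a3 and Ddc were above background on all 6 arrays. Other dopamine markers were not: Pitx3 was above it in 3 solvent and 0 rotenone rats, Nr4a2 in 3 and 2, and Foxa2 in 2 and 2.

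In none of the 24 proteasome genes did rotenone and solvent differ by limma's test. The share of all 16708 probes tested that passed at an adjusted p of 0.05 was 0%, and limma's adjusted p of the 24 genes ran from 0.895 to 0.999. At an unadjusted p of 0.05, 0 of the 24 genes passed, against 4.94% of all probes, and the smallest unadjusted p was 0.0693, for Psmd4. The mean was lower with rotenone in 20 of the 24 genes, against 48.4% of all probes. The median difference was -0.25, 0.842 times the solvent level, against a median of 0.009 over all probes. Without rotenone rat 16 the mean was lower in 17 of 24 genes (49.5% of all probes) and the median difference was -0.064, or 0.957 times. On the probe used for each gene, 0 of the 24 genes had all 3 rotenone rats below all 3 solvent rats, a pattern seen in 4.89% of all probes. In captured tissue, fewer cells that express a gene and less RNA per cell cannot be told apart.

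**Figure D1:**
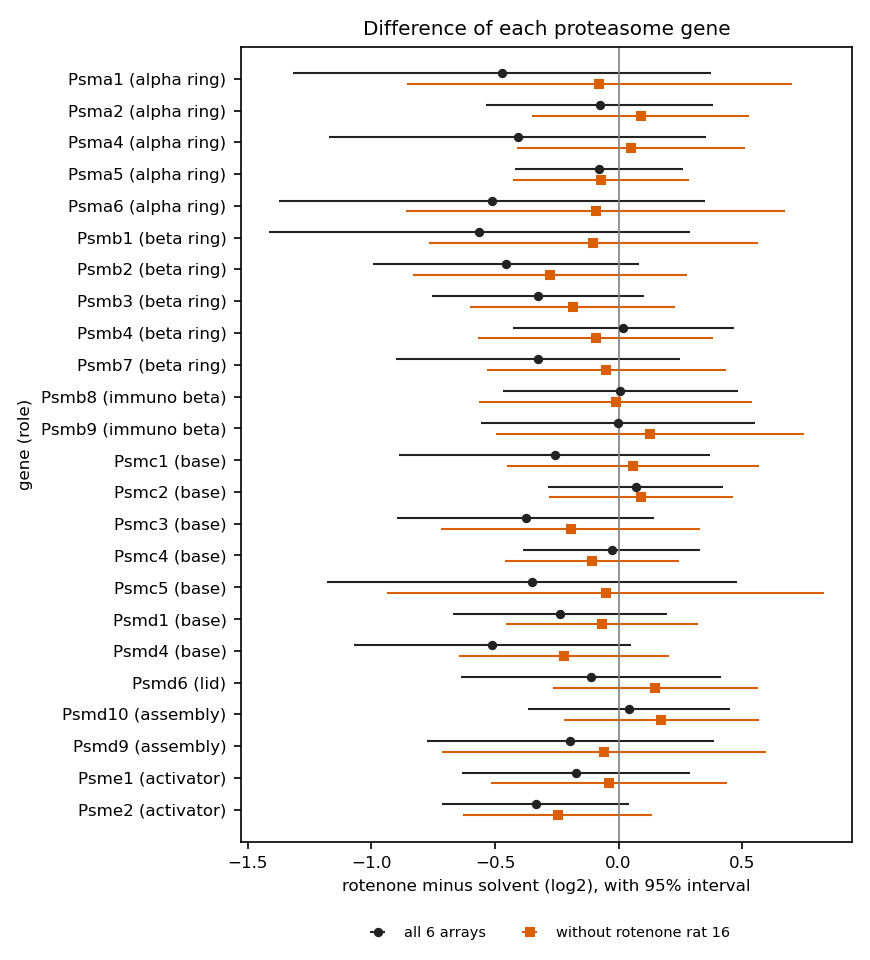
Difference between rotenone and solvent for each proteasome gene, as log2 (horizontal axis), with the 95% interval of the limma fit, from all 6 arrays (circles) and without rotenone rat 16 (squares). The intervals all include 0, and 20 of 24 circles but 17 of 24 squares lie left of it.

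The width of these intervals follows limma's standard error, which draws on the rats' spread and on the variance over all probes tested. This standard error of a gene's difference ran from 0.153 (Psma5) to 0.388 (Psma6), with a median of 0.235. For Psma5 the SD was 0.074 among the solvent rats and 0.075 among the rotenone rats. In 6 genes, namely Psma1, Psma4, Psma6, Psmb1, Psmc5 and Psmd4, the 95% interval reached below -1, so a log2 difference of -1 lies within it. In 6 genes it lay wholly between -0.5 and 0.5, so differences beyond those bounds lie outside it. The median SD was 0.283 among the solvent rats and 0.315 among the rotenone rats, and 0.112 between rotenone rats 13 and 9.

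In the alpha ring all 5 genes had the lower mean with rotenone, with a median difference of -0.41, and 3 of 5 had it without rotenone rat 16, with a median of -0.071. Psma6, a structural subunit of the ring, read 10.25, 10.47 and 9.34 in solvent rats 11, 7 and 1 and 8.66, 9.65 and 10.20 in rotenone rats 16, 13 and 9. The groups overlapped, with rotenone rat 16 lowest and solvent rat 1 next. The difference was -0.51 ± 0.39 (limma's SE, n = 3 per group) with rat 16 and -0.093 without it.

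Psma1, another subunit of this ring, read 7.81, 7.84 and 6.69 in the solvent rats, in the same order, and 6.19, 7.53 and 7.21 in the rotenone rats. Solvent rat 1 and rotenone rat 16 were both low, and the other 4 rats lay above them. The difference was -0.47 ± 0.38 with rat 16 and -0.078 without it. Being below background in rat 16, Psma1 depends on the offset, and its difference was -0.65 with an offset of 16 and -0.82 with none. Psma4 had the widest gap between rotenone rat 16 and the next lowest rat, and was named for it after its values were seen. Its solvent rats read 10.94, 10.77 and 10.43, and its rotenone rats 9.39, 10.92 and 10.61. Rotenone rat 16 lay 1.045 below the next lowest rat, the other 5 rats overlapped, and the difference turned from -0.41 to 0.050 without that rat. Psma2 and Psma5 differed by -0.076 and -0.079, and by 0.090 and -0.071 without rat 16.

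In the beta ring 4 of 5 genes had the lower mean with rotenone, with a median difference of -0.33, and 5 of 5 without rotenone rat 16, with a median of -0.10. Psmb7 carries the trypsin-like site of the constitutive core. It read 11.59, 11.61 and 11.03 in the solvent rats and 10.53, 11.41 and 11.31 in the rotenone rats. Rotenone rat 16 was again the lowest and solvent rat 1 the next, while rotenone rats 13 and 9 lay among the solvent rats. The difference of Psmb7 was -0.33 ± 0.26, and -0.050 without rat 16.

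Psmb2, a beta subunit without a proteolytic site, had 2 probes. The probe with the higher mean read 7.56, 7.76 and 7.14 in the solvent rats and 6.67, 6.93 and 7.48 in the rotenone rats. Rotenone rats 16 and 13 lay below all solvent rats and rotenone rat 9 among them. This probe gave -0.46 ± 0.24 (95% interval -0.99 to 0.081), and -0.28 without rat 16. Without the offset it gave -0.71, and -0.76 with plain subtraction. The second probe gave -0.071, and 0.066 without rat 16, so the probes of Psmb2 disagree in size and, without that rat, in sign.

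Psmb3, also without a proteolytic site, read 11.65, 11.58 and 11.23 in the solvent rats and 10.87, 11.26 and 11.34 in the rotenone rats on its brighter probe. Solvent rat 1 lay below rotenone rats 13 and 9, so the groups overlapped. The difference was -0.33 ± 0.19, and -0.19 without rat 16. Its second probe read 9.52, 9.56 and 9.63 against 9.37, 9.32 and 9.39. There all rotenone rats were below all solvent rats, the difference was -0.21 (-0.215 without rat 16), limma's adjusted p was 0.895, and rotenone rat 16 was not the lowest.

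Psmb1, a further beta subunit without a proteolytic site, had the largest difference of the 24 genes and was named for it after its values were seen. It read 9.76, 9.91 and 8.89 in the solvent rats and 8.04, 9.37 and 9.48 in the rotenone rats. Rotenone rat 16 lay 0.855 below solvent rat 1, which was the next lowest. The difference of Psmb1 was -0.56 ± 0.38, a solvent mean 1.48 times the rotenone mean, and -0.10 without rat 16. Psmb4, the remaining beta subunit, differed by 0.019, and by -0.093 without rat 16, and its lowest rat was solvent rat 1.

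The immunoproteasome subunits did not share this order of the rats. Psmb8, which replaces the chymotrypsin-like subunit, read 8.05, 8.38 and 8.88 in the solvent rats and 8.48, 8.36 and 8.49 in the rotenone rats. The rotenone rats lay close together between the extremes of the solvent rats, and the difference was 0.007 ± 0.21, and -0.012 without rat 16. Psmb9, which replaces the caspase-like subunit, read 7.33, 8.03 and 8.27 in the solvent rats and 7.62, 7.87 and 8.13 in the rotenone rats. In both genes solvent rat 11 was the lowest and solvent rat 1 the highest of the 6. The difference of Psmb9 was -0.002 ± 0.25, and 0.126 without rat 16.

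**Figure D2:**
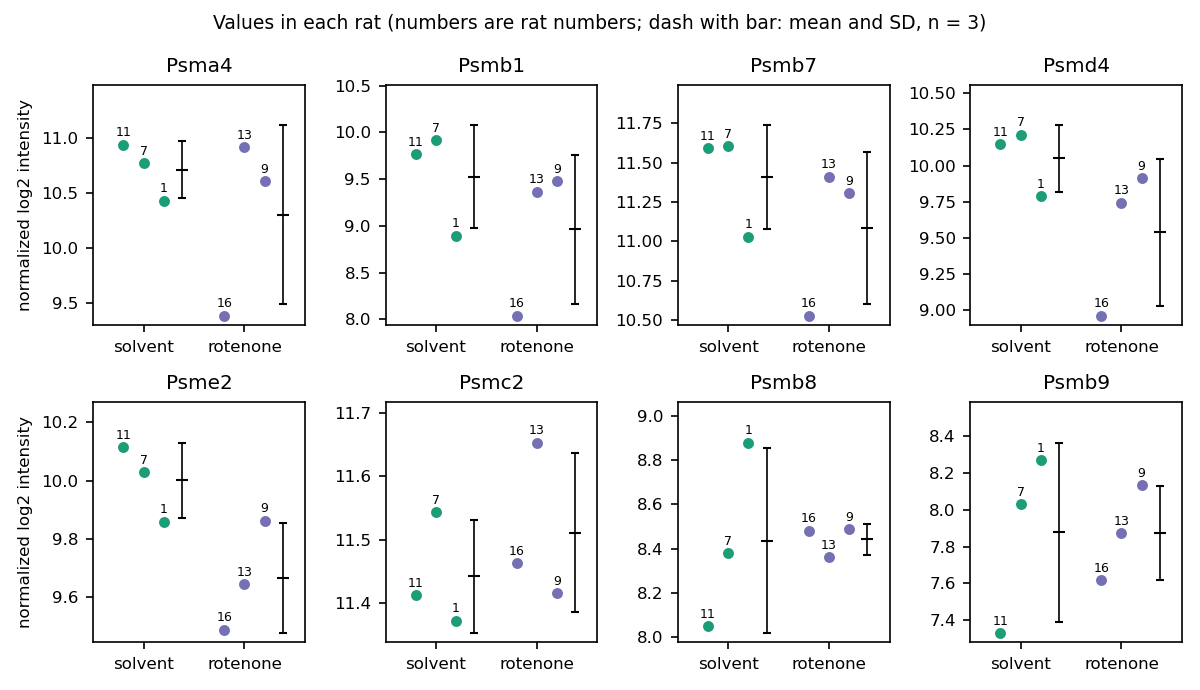
Normalized log2 intensity (vertical axis, a separate range for each gene that does not start at 0) in the 3 solvent and 3 rotenone rats for 8 proteasome genes, with the rat's number beside each point and the mean with its SD to the right. Rotenone rat 16 is lowest for Psma4, Psmb1, Psmb7, Psmd4 and Psme2, and not for Psmc2, Psmb8 and Psmb9.

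In the base 6 of 7 genes had the lower mean with rotenone, with a median difference of -0.26, and 5 of 7 without rotenone rat 16, with a median of -0.067. Psmd4, a ubiquitin receptor of the particle, had the smallest unadjusted p. It read 10.15, 10.21 and 9.79 in the solvent rats and 8.96, 9.74 and 9.91 in the rotenone rats. Rotenone rat 16 lay 0.783 below the next lowest rat, and rotenone rat 9 lay above solvent rat 1. The difference of Psmd4 was -0.51 ± 0.25 (95% interval -1.07 to 0.049), and -0.22 without rat 16.

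Psmc3, an ATPase of the base ring, read 6.70, 7.02 and 6.25 in the solvent rats and 5.92, 6.49 and 6.43 in the rotenone rats. Solvent rat 1 lay below rotenone rats 13 and 9. The difference was -0.38 ± 0.23, and -0.19 without rat 16. Psmc3 was below background in rat 16, and with all 6 rats its difference grew to -0.62 with an offset of 16, -0.96 with none, -1.30 with plain subtraction and -0.73 on the authors' scaled intensity. Psmc2, another ATPase, was the base gene with a higher mean with rotenone and was named for that after its values were seen. It read 11.41, 11.54 and 11.37 in the solvent rats and 11.46, 11.65 and 11.42 in the rotenone rats, a difference of 0.069 ± 0.16, and 0.092 without rat 16. The groups overlapped, with rotenone rat 13 above all solvent rats and solvent rat 1 the lowest. The remaining ATPases Psmc1, Psmc4 and Psmc5 differed by -0.26, -0.027 and -0.35, and the scaffold subunit Psmd1 by -0.24. Without rat 16 these differences were 0.058, -0.11 and -0.052 for Psmc1, Psmc4 and Psmc5, and -0.067 for Psmd1. A second Psmd1 probe was below background on all 6 arrays and was not tested.

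Psmd6, the single lid gene among the named probes, read 9.22, 9.53 and 9.09 in the solvent rats and 8.65, 9.48 and 9.38 in the rotenone rats. Rotenone rat 16 was lowest and the other 5 rats overlapped. The difference was -0.11 ± 0.24, and 0.149 without rat 16. The base assembly chaperones Psmd9 and Psmd10 differed by -0.20 and 0.042, and by -0.061 and 0.173 without rat 16.

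The activators Psme1 and Psme2 form the cap that opens the core without ATP and is induced by interferon. Psme2 read 10.11, 10.03 and 9.86 in the solvent rats and 9.49, 9.64 and 9.86 in the rotenone rats. Rotenone rats 16 and 13 lay below all solvent rats, and rotenone rat 9 lay level with solvent rat 1. The difference of Psme2 was -0.34 ± 0.17 (95% interval -0.71 to 0.043) and -0.25 without rat 16, where limma's adjusted p values were 0.895 and 1. Psme1 read 10.46, 10.72 and 10.50 in the solvent rats and 10.12, 10.81 and 10.23 in the rotenone rats, with the highest and the lowest rat both on rotenone. It differed by -0.17 ± 0.21, and by -0.040 without rat 16.

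Across the 24 genes the order of the rats repeated. Rotenone rat 16 was the lowest of the 6 in 17 genes, against 26.2% of all probes, and lay a median of 0.444 below the next lowest rat in those 17. The 7 exceptions were Psma5, Psmb4, Psmb8, Psmb9, Psmc2, Psmc4 and Psmd9. Among the solvent rats, rat 1 was the lowest in 20 of 24 genes, against 34.6% of all probes, and rat 7 in 0, against 32.9%. In 16 genes both held, with rotenone rat 16 the lowest of all and solvent rat 1 the lowest of its group. The share of all probes in which both held was not computed.

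Set against the mean of the solvent rats (for a solvent rat, of the other solvent rats), the 24 genes had a median deviation of -0.59 in rotenone rat 16. Rotenone rats 13 and 9 lay near the solvent mean, with medians of -0.008 and -0.074. In the solvent rats it was 0.172, 0.235 and -0.39 for rats 11, 7 and 1. The deviation of solvent rat 1 from the other solvent rats was larger than that of rotenone rats 13 and 9 from the solvent mean. These references differ, since the solvent mean used for the rotenone rats includes the low solvent rat 1. By role, rotenone rat 16 deviated by -1.26 in the alpha ring, -0.81 in the beta ring, -0.74 in the base and -0.47 in the activators, but by -0.11 in the immunoproteasome subunits. Solvent rat 1 deviated by -0.42, -0.52, -0.39 and -0.15 in those first 4 roles, and by 0.626 in the immunoproteasome subunits. The immunoproteasome medians rest on Psmb8 and Psmb9 alone, at 0.044 and -0.257 in rotenone rat 16. In that rat Psmb4 (0.243), Psmc2 (0.021) and Psmc4 (0.134) also lay above the solvent mean, while 20 of the 24 genes lay below it. The median over all probes tested lay between -0.006 and 0.008 in each of the 6 rats. Quantile normalization gives the arrays equal distributions and so holds this median near 0.

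**Figure D3:**
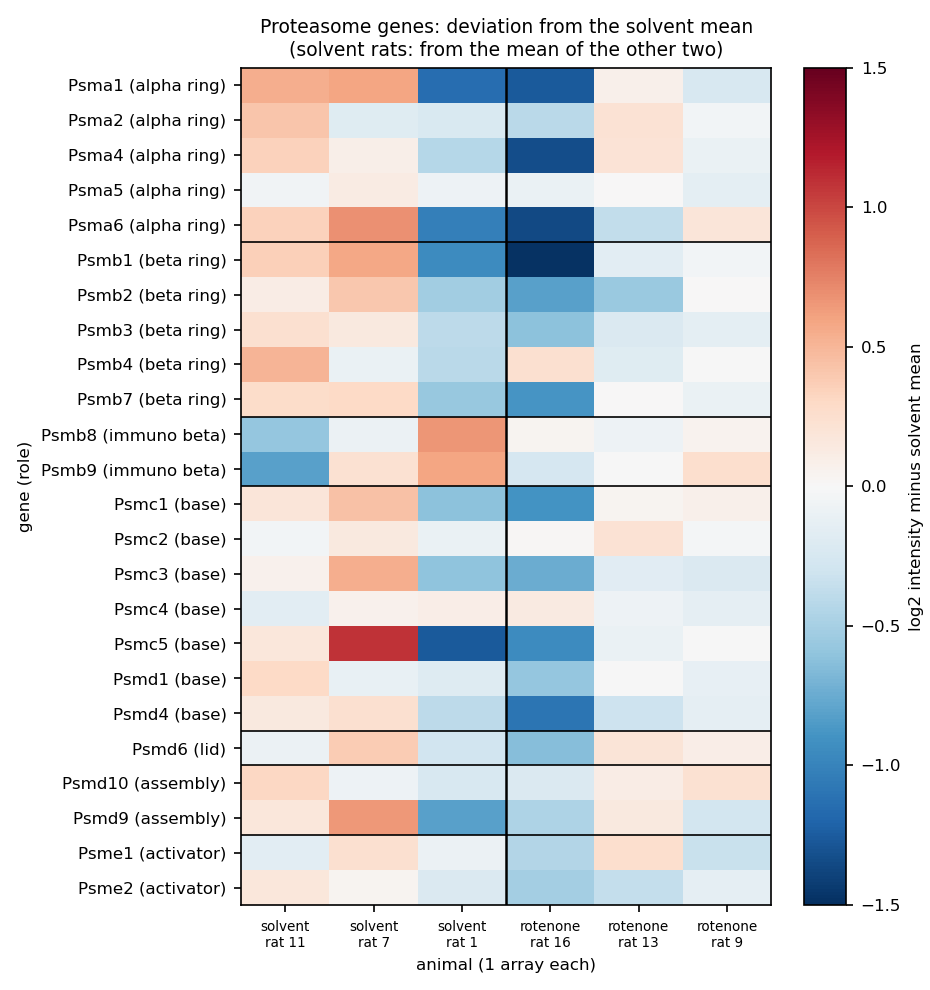
Deviation of each proteasome gene (rows, by role) in each rat (columns) from the solvent mean, as log2, where a solvent rat is compared with the mean of the other solvent rats. The columns of rotenone rat 16 and solvent rat 1 are mostly blue (lower), with the deepest value, -1.48, for Psmb1 in rotenone rat 16, and the immunoproteasome subunits are red (higher) in solvent rat 1.

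The members are bright: 15 of the 24 lay among the brightest 4177 probes of the 16708 tested. Over those 4177 probes the median difference was 0.013, 47.8% of probes had the lower mean with rotenone, and rotenone rat 16 was the lowest in 31.1%. Where arrays were scaled to equal medians in place of equal distributions, 23 of 24 proteasome genes and 61.9% of all probes had the lower mean, and the medians were -0.36 and -0.061. Leaving out solvent rat 1 moved the median difference of the members to -0.43 and gave 7 of 24 genes an unadjusted p below 0.05, against 5.57% of all probes there, with a smallest adjusted p of 0.826. At that threshold 3 genes passed without rotenone rat 9 (5.95% of probes), 1 with equal array medians (5.61%) and 1 with no filter on dim probes (4.67%), and none passed after adjustment. Leaving out solvent rat 7 moved the median to -0.125. RefSeq names 27 pseudogenes for 10 of the 24 genes, and the part of near-identical transcripts in the signal of a probe was not tested.

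Genes that work with the proteasome were few among the named probes, and in no list did a gene pass the test. Rps27a, which encodes ubiquitin fused to a ribosomal protein, was the only ubiquitin gene named. It read 12.11, 11.55 and 11.77 in the solvent rats and 10.58, 11.74 and 11.53 in the rotenone rats, with rotenone rat 16 well below the rest. Its difference was -0.53 ± 0.29, and -0.18 without rat 16. Of 4 genes of ubiquitin conjugation tested, 2 had the lower mean with rotenone (median -0.023), among them Ube2b at -0.15, and 3 of 4 without rat 16 (median -0.026, Ube2b -0.004). All 3 ubiquitin ligase genes tested had the lower mean (median -0.11), with Siah2 at -0.34 and Trim3 at -0.11. Without rat 16 it was 2 of 3 (median -0.10), with Siah2 at -0.37 and Trim3 at -0.10. Of 4 deubiquitinase genes 2 had the lower mean (median 0.007), with Atxn3 at 0.310 and Uchl1 at -0.17, and 2 without rat 16, with Atxn3 at 0.059 and Uchl1 at -0.026.

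The shuttle and unfolding factors that bring substrates to the proteasome had the lower mean in 4 of 4 genes tested, with a median of -0.19. Vcp, the ATPase that extracts ubiquitinated proteins from complexes and membranes, differed by -0.30, and Faf1, one of its cofactors, by -0.22. Without rat 16 it was 3 of 4 (median -0.13), with Vcp at -0.12 and Faf1 at -0.15. Of the regulators of proteasome gene transcription 3 were tested. Nfyb differed by -0.026, Nfyc by -0.022 and Nfe2l2, named after its value was seen, by -0.002. Without rat 16 all 3 had the higher mean, at 0.086, 0.108 and 0.148. Nfyb was above background in 3 solvent and 1 rotenone rats and Nfyc in 2 and 2. The offset pulls differences of such dim probes towards 0. Mafk and Nfya were below background on all 6 arrays. The median deviation of the 3 genes was -0.28 in rotenone rat 16 and -0.175 in solvent rat 1, and positive in the other rats. Of 3 antigen processing and interferon response genes tested, 1 had the lower mean (median 0.120), and Mx2 and Ifit1 differed by 0.126 and 0.120. Without rat 16 it was again 1 of 3 (median 0.053), and these genes differed by 0.053 and 0.131. Adrm1, the sole proteasome gene with another symbol on the array by name, was below background on all 6 arrays.

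Neuron markers were low in rotenone rat 16 as well. All 8 of 8 neuron markers tested had the lower mean with rotenone, with a median difference of -0.28, and 6 of 8 without rat 16, with a median of -0.11. Their summed linear intensity was 6712 to 7745 in the solvent rats and 3926 to 6380 in the rotenone rats, and 5241 to 6380 without rat 16. Such a sum is weighted towards the brightest probe, here Gap43. Taken singly, Gap43 and Syn2 had all rotenone rats below all solvent rats, a pattern seen in 4.89% of all probes. The groups overlapped in the other neuron markers tested. Uchl1 is counted here and among the deubiquitinases. Syn1 was above background in 3 solvent and 1 rotenone rats, and Uchl1 in 3 and 2. Ina, an intermediate filament protein of neurons, differed by -0.78, and Gap43, a protein of growing axons, by -0.50 (-0.48 and -0.39 without rat 16). Their median deviation was -0.71 in rotenone rat 16 and -0.20 in solvent rat 1, and Snap25 was below background on all arrays. The part of neuron content in the proteasome values was not tested.

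Other marker lists did not follow the same order of rats. By median deviation, rotenone rat 16 was the lowest rat also for oligodendrocytes (-0.54), astrocytes (-0.16), and endothelium and pericytes (-0.45). A different rat was lowest for dopamine neurons, microglia and macrophages, blood cells, and choroid plexus, ependyma and meninges. Of 11 dopamine neuron markers 7 had the lower mean, with a median of -0.17, and their summed intensity was 30208 to 36687 in the solvent and 27567 to 37545 in the rotenone rats. Without rat 16 it was 10 of 11 (median -0.17), and the sums of the other rotenone rats were 27567 to 32518. Their median deviation was -0.19 in rotenone rat 16 and 0.134 in solvent rat 1. Of these markers, Slc6a3 (-0.20) and Sncg (-0.67) had all rotenone rats below all solvent rats, a pattern seen in 4.89% of all probes. Without rat 16 these differences were -0.16 and -0.38. The groups overlapped in the other dopamine markers tested. Of 7 oligodendrocyte markers 5 had the lower mean (median -0.37), with a deviation of -0.54 in rotenone rat 16 and 0.508 in solvent rat 1. The summed oligodendrocyte intensity was 4720 to 7021 against 4376 to 5570, and against 4980 to 5570 without rat 16, where 5 of 7 were lower (median -0.28). Of 6 astrocyte markers 2 had the lower mean (median 0.126), namely Gfap at -0.15 and S100b at -0.26. The summed intensity of the 6 was 9792 to 11336 against 11382 to 13019. Without rat 16 the lower mean was found in 0 of 6 (median 0.214), and the sums were 11497 to 13019. Taken singly, the groups overlapped in each of the 6 markers, and the sum is weighted towards the brightest, Glul. Aqp4 and Slc1a2 of that list were below background on all arrays. The lower mean was also found in 3 of 4 markers of microglia and macrophages, 2 of 3 of endothelium and pericytes, 1 of 3 of blood cells and 0 of 1 of choroid plexus, ependyma and meninges. Without rat 16 these counts were 4 of 4, 1 of 3, 1 of 3 and 1 of 1. The part of these cell types was not tested.

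**Figure D4:**
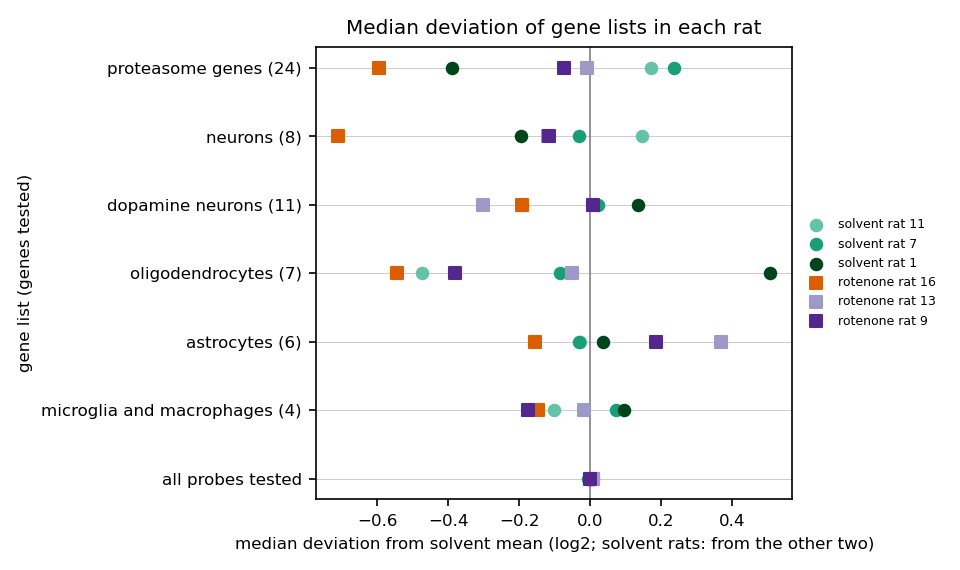
Median deviation from the solvent mean (log2, horizontal axis; a solvent rat is compared with the other solvent rats) of the proteasome genes, 5 lists of cell type markers and all probes tested, 1 point for each rat. For the proteasome genes and for neurons rotenone rat 16 lies lowest and solvent rat 1 next. Rotenone rat 16 also lies lowest for astrocytes and for oligodendrocytes, while for oligodendrocytes solvent rat 1 lies highest.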

How the data were processed

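Total RNA of the laser-captured region of each rat was amplified, labelled with biotin and hybridised to 1 array, per the labels' protocols. The deposited scanner files give linear intensity per spot (spot mean, local background median, and a net value that the authors scaled to the array median). The sources used here name no scanner software. In the deposited value table stands the scaled intensity, linear, with column medians of 0.994 to 1. Its column of solvent rat 7 equalled the scanner file for 0.898% of probes, against 100% for the other 5, so scaled values were read from the scanner files. Probes were named through RefSeq transcripts (GRCr8 table). Background was corrected with normexp (offset 50) and log2 values were quantile-normalized, keeping every spot. Probes above background on at least 3 of 6 arrays (16708) were tested with limma 3.58.1 in R 4.3.3, two-sided, with Benjamini-Hochberg adjusted p over all of them. The p values are limma's, since an exact permutation over 3 and 3 rats gives no p under 0.1. Precision is limited by the number of arrays. The test was tried on simulated data, but no result of that trial is given here, so nothing is claimed from it.

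A gene with several probes is given by the probe with the highest mean. Members, roles, gene lists and motifs were chosen with earlier results of these data known. Genes given rat by rat are the 2 with the lowest p of each role (alpha ring, beta ring, base, lid, activators), Psmd4, the proteolytic subunits and their immunoproteasome counterparts, and, named after their values were seen, Psma4, Psmb1 and Psmc2. Of other pathway lists the 2 genes with the lowest p are named, of which 1 is not reported here. Alternatives were other scaling, background correction, offset, filter, spot and probe rules, array weights, the authors' scaled intensity, the file header date as a block, a test without variance moderation, and leaving out each rat.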

Additional observations from a re-analysis of the deposited data

How the results depend on the processing

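The number of probes passing limma's test, 0, stayed 0 under the processing alternatives except where scanner-marked spots were left out (2 of 4283 probes), and ran from 0 to 3 when 1 rat was left out, with 3 without solvent rat 1. Leaving out marked spots kept only Psmd10 among those 4283 probes, so the count of lower genes there is 1 of 1. The median difference of the proteasome genes ran from -0.43 to -0.064 when 1 rat was left out. It ran from -0.36 to -0.058 under the other alternatives, and the count of lower genes from 16 (the authors' scaled intensity) to 23 of 24 where all were tested. No gene's difference passed under any alternative. The direction held in 242 of 263 gene values of the processing alternatives and turned in 21, among them Psmc5, which differed by -0.35 with all 6 rats. These values are not all independent checks. The filter rules gave each gene the same difference as the main setting, so no direction could turn under them. Averaging probes changed only Psmb2 and Psmb3. The file header date as a block gave the same differences as leaving out solvent rat 7. With the authors' scaled intensity Psma2 was 0.016, Psma5 0.024, Psmb9 0.015 and Psmc4 0.055. With equal array medians Psmb4 was -0.094, Psmb8 -0.107 and Psmd10 -0.007. With array weights Psmb4 was -0.044, Psmb9 0.120 and Psmd6 0.012. With the file header date as a block, which removes solvent rat 7 from the comparison, Psmb4 was -0.014, Psmb8 -0.022, Psmb9 0.074, Psmc5 0.011, Psmd6 0.013 and Psmd9 0.020. Psmb8 was -0.018 with cyclic loess. Psmb9 was 0.016 with subtraction, 0.006 with an offset of 16 and 0.013 without offset, and Psmd10 was -0.058 without marked spots. When 1 rat was left out, the differences ran from -0.22 to 0.090 for Psma2, -0.72 to 0.050 for Psma4, -0.12 to 0.187 for Psmb4, -0.19 to 0.228 for Psmb8 and -0.28 to 0.194 for Psmb9. They ran from -0.47 to 0.058 for Psmc1, -0.003 to 0.119 for Psmc2, -0.11 to 0.026 for Psmc4 and -0.77 to 0.011 for Psmc5. For Psmd6 they ran from -0.27 to 0.149, for Psmd9 from -0.47 to 0.020 and for Psmd10 from -0.052 to 0.173. The cause of these turns was not tested. No paired analysis was possible because the rat numbers differ between the groups. Signal over background limits Psma1 and Psmc3, which were below background in rotenone rat 16.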
